A study of Mus musculus with 5 samples.

Results

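Netrins, draxin and their receptors were followed in newborn mice, in the part of the thalamus that passes retinal signals to the visual cortex, the dorsal lateral geniculate nucleus (dLGN). The members were 10 genes, taken as every probe set of the array whose platform gene symbol is Dcc, Neo1, Unc5a, Unc5b, Unc5c, Unc5d, Ntn1, Ntn3, Ntn4 or Draxin. They had 21 of the 45037 probe sets tested, and 10 of the 18193 genes named on the array. A probe set is a group of short oligonucleotides that together report 1 stretch of transcript, and its value here is a log2 expression value made by the authors with RMA. Differences between probe sets in level partly reflect the oligonucleotides themselves, so levels were compared between arrays within a probe set and not between genes.

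The study compared mice homozygous for a Sema6A knock-out (2 arrays) with heterozygous mice (3 arrays), all on a C57BL/6 background and taken at postnatal day 0. Sema6A is a transmembrane semaphorin of axon guidance, and the heterozygous controls therefore also carried 1 disrupted copy. Each array held RNA pooled from dLGN tissue of pups of 1 genotype from several litters, so errors and p-values measure the spread between pools. The allele and the sex of the pups were not given in the sources used here.

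Netrins are secreted proteins related to laminins. Dcc, a receptor of the immunoglobulin superfamily, turns growing axons towards netrin-1, and the same cue repels axons when Unc5 receptors take part. Neogenin, encoded by Neo1, is the relative of Dcc and also binds repulsive guidance molecules, while draxin is a secreted inhibitor that binds Dcc and netrins. In the developing forebrain, netrin-1 and these receptors guide thalamic axons on their way to the cortex.

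The labels were checked on the targeted gene and on tissue markers. At its brightest probe set Sema6a fell by 2.68 on the log2 scale, to 7.81 and 7.85 in the knockout arrays (limma adjusted p = 0.0236). All 10 relay neuron markers, Tcf7l2 and Slc17a6 among them, lay above the median of all values, 6.41, in every array, and 0 of 6 cortical and hippocampal markers did so. The arrays were not alike in relay neuron markers or in those of other cell types. Each marker gene was read at its brightest probe set, where 15.8% of all genes read above every control in both knockout arrays and 13.9% below. Of the 10 relay neuron markers 4 read above and 2 below every control, with 0 past the adjusted test. Gbx2 read 9.02 and 11.22 in knockout replicates 1 and 2 and 6.95 to 8.86 in the control. Slc6a4 read 7.98 and 10.599 against 10.605 to 10.85. Of 15 microglia and macrophage markers, 14 read above every control, and Lyz2 and Tyrobp rose (limma adjusted p = 0.0236 each). Of 11 oligodendrocyte lineage markers 6 read above and 2 below every control, and of 10 radial glia and astrocyte markers 1 read above and 0 below, with 0 past the adjusted test in both lists. The 2 relay neuron markers below, the 2 oligodendrocyte lineage markers below and the 1 radial glia and astrocyte marker above are near the shares over all genes. Knockout replicate 1 also stood apart by its GABAergic and prethalamic markers, whose summed signal was 13.36 on the log2 scale there, 11.03 in replicate 2 and at most 11.30 in a control. Its Gapdh signal was also more skewed to the 3′ end of the transcript, with a 3′ minus 5′ difference of 2.34, whereas the other 4 arrays gave 0.77 to 1.33. For several members the value without this array is given too.

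For 2 members of the Unc5 family the reference table held a promoter that ends at the start of the annotated gene, and these are shown because the probe sets of both genes all had lower means in the knockout. They are the 250 bases before the start in RefSeq on GRCm38.p6, written 5′ to 3′ on the strand of the gene, with CpG dinucleotides in capitals. The Unc5c sequence lies at chr3:141465314-141465563 on the plus strand and the Unc5b sequence at chr10:60831582-60831831 on the minus strand.
Unc5c: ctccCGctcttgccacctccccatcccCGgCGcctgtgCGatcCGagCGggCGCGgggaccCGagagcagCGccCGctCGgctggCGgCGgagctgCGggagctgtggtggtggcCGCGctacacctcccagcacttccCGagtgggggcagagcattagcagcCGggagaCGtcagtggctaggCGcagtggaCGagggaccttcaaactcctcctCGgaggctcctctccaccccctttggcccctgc
Unc5b: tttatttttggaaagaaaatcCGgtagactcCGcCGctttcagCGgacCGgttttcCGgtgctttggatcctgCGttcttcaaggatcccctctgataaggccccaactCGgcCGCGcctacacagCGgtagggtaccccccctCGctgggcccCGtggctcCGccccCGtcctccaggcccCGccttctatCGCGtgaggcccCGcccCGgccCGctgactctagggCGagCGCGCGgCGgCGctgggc
The Unc5c window held 23 CpG dinucleotides and the Unc5b window 27, against a median of 6 over 27018 promoters of the same length. All 7 members with a promoter in the table (Neo1, Unc5a, Unc5b, Unc5c, Ntn3, Ntn4 and Draxin) exceeded that median, from 11 in Ntn3 to 45 in Neo1. The TATA box motif TATAAA, searched on both strands, was found in 0 of the 7 and in 13.0% of all promoters. Dcc, Unc5d and Ntn1 have no entry.

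None of the 21 member probe sets passed the test over the whole array. The fit with limma, adjusted by the Benjamini-Hochberg method over all 45037 probe sets, called 33 of them (0.0733%) at an adjusted p under 0.05, and the members' adjusted p-values ran from 0.240 to 0.996. At an unadjusted p under 0.05, 4 member probe sets were higher and 2 lower in the knockout, against 5.16% and 5.99% of all probe sets. These 4 were 2 of Dcc and 1 each of Unc5d and Draxin, and the 2 were 1 each of Unc5c and Ntn1. The median log2 fold change of the 21 probe sets was -0.01, the same as the -0.01 over all probe sets. The design is too small for exact permutation of 1 value to reach a p under 0.1.

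Both knockout arrays lay on one side of every control for 9 of the 21 probe sets, 42.9%, against 27.3% of all probe sets. Of these, 4 were higher (12.9% of all probe sets) and 5 lower (14.5%). The median size of the log2 fold change, whatever its sign, was 0.36 for the members and 0.15 over all probe sets. The 8 member probe sets above the median of all values in every array belonged to Dcc, Neo1, Unc5a, Unc5c, Ntn4 and Draxin, while 10 lay below it in every array.

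**Figure D1:**
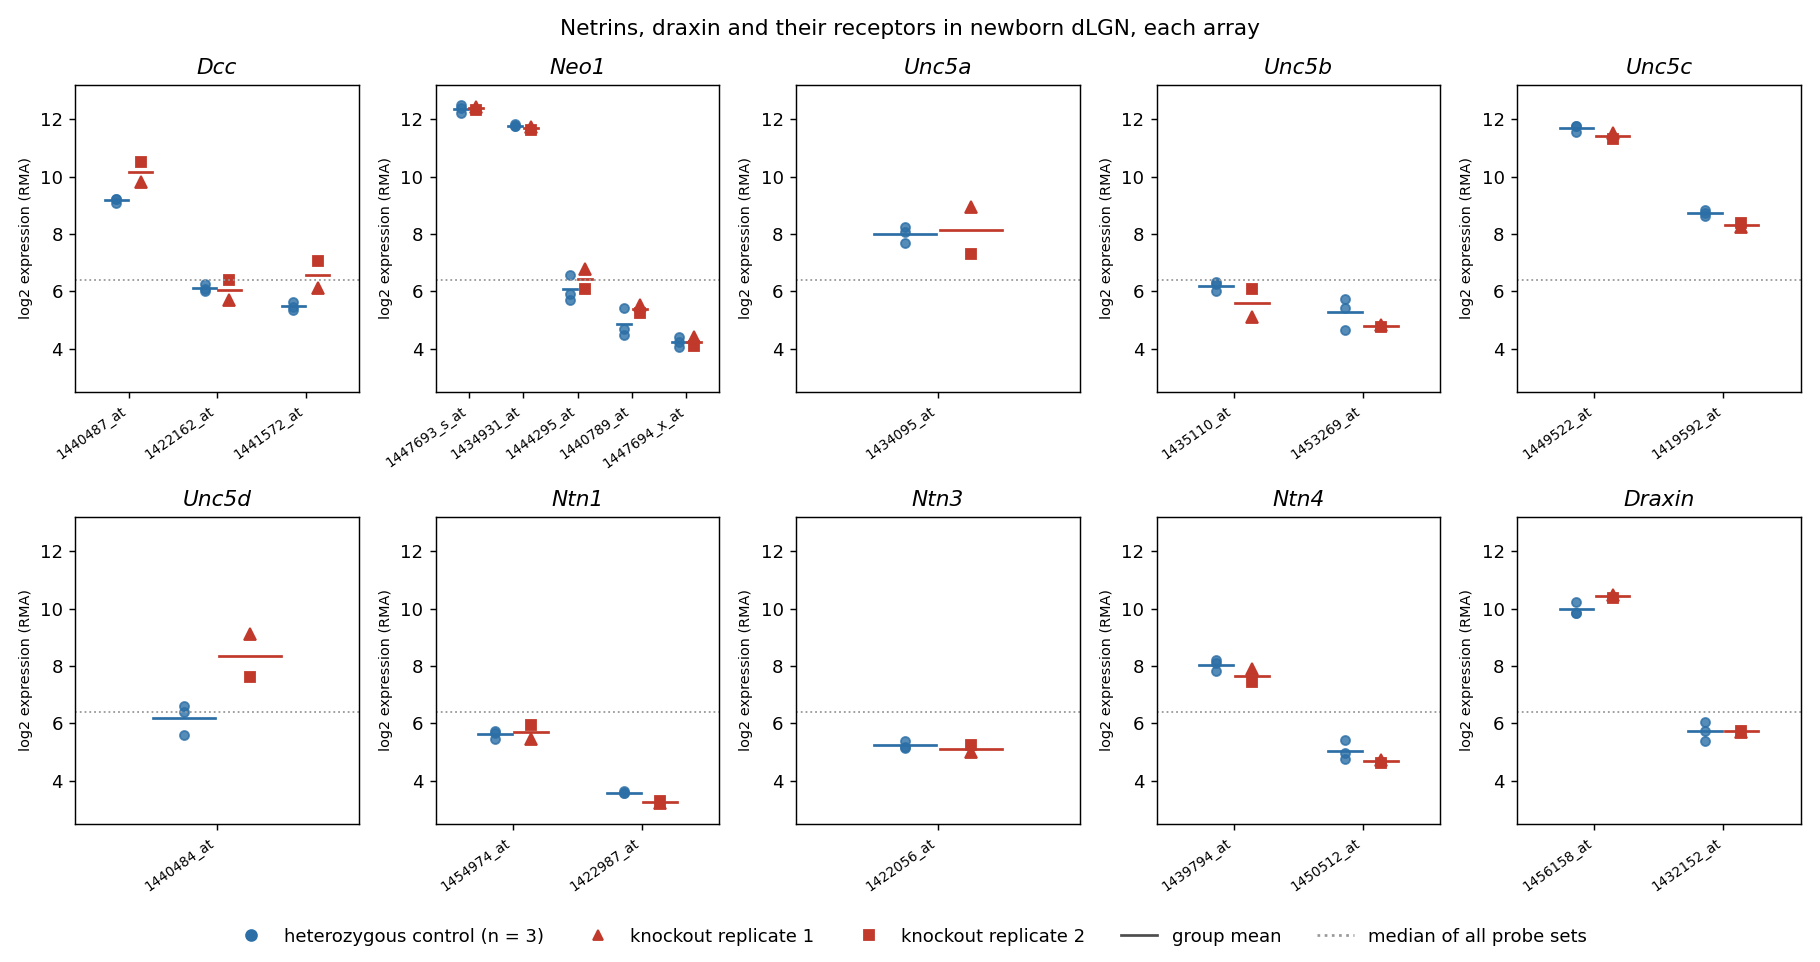
Log2 expression of every member probe set (a panel per gene) in each array, with blue circles for the 3 heterozygous control pools, red triangles and squares for knockout replicates 1 and 2, short lines for group means and a dotted line at the median of all probe sets. Both knockout arrays lie above every control for 2 Dcc probe sets, Unc5d and 1 Draxin probe set, and heights of different probe sets are not to be compared.

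Dcc, the attractive netrin receptor, read higher in both knockout pools at 2 of its 3 probe sets. The brightest, 1440487_at, read 9.80 in the first knockout pool (replicate 1) and 10.51 in replicate 2, and the controls read 9.09, 9.21 and 9.22. The groups did not overlap, and the controls spanned far less than the gap between the knockout arrays. This amounts to a log2 fold change of 0.98 ± 0.22 (SE), or 1.97-fold (limma adjusted p = 0.240, unadjusted p = 0.00529), and the 95% interval ran from 0.43 to 1.53.

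The second Dcc probe set, 1441572_at, behaved alike at a lower signal, above the median of all values in only 1 array. It read 6.11 and 7.05 in the knockout and 5.37, 5.46 and 5.62 in the control, a log2 fold change of 1.10 ± 0.29 (SE; limma adjusted p = 0.290). The platform annotation ties this probe set and the brightest to GenBank sequences, not to a RefSeq mRNA. As at the brightest probe set, replicate 2 was the higher knockout array and no control reached replicate 1. Without knockout replicate 1 the values of these probe sets were 1.33 and 1.57, and without replicate 2 they were 0.63 and 0.62.

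The third Dcc probe set, 1422162_at, which the platform annotation ties to a RefSeq mRNA of the gene, read 5.70 and 6.41 in the knockout and 6.03, 6.25 and 6.07 in the control. Its knockout arrays fell on either side of the controls, and the log2 fold change was -0.06 (95% interval -0.63 to 0.50). Without knockout replicate 1 it was 0.29 and without replicate 2 it was -0.42. The brightest probe set exceeded this one by 4.10 in both knockout arrays and by 2.97 to 3.15 in the controls. That difference of differences was 1.04, in an exact permutation test p = 0.1, the smallest value possible here, and 0.55 after adjustment over the 11 pairs compared, in which the brightest probe set of a gene was set against each of its others. This comparison was chosen after the values were seen. Dcc lies on chromosome 18 of GRCm38.p6 from 71253613 to 72351228, on the chromosome that carries Sema6a and 23.9 Mb beyond it.

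The genes whose 5 values ran closest to those of Dcc were Stard5, Igsf9 and Gabrg1, out of 11724 genes of at least median level. Likeness was the mean absolute difference between the centred values of the 5 arrays, which was 0.06 for Stard5, 0.07 for Igsf9 and 0.08 for Gabrg1. Gabrg1, a subunit of GABA-A receptors, had a log2 fold change of 1.10 (limma adjusted p = 0.137), and Igsf9, an immunoglobulin superfamily adhesion gene, one of 1.08 (adjusted p = 0.186). These genes were picked by their closeness to Dcc, so fold changes near that of Dcc follow from the choice. Dcc was the reference as the member with the smallest unadjusted p at its brightest probe set. With 5 arrays many genes can share such a profile.

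Neo1, the neogenin gene, was measured by 5 probe sets and showed no difference that the test called. The brightest, 1447693_s_at, read 12.44 and 12.33 in the knockout and 12.41, 12.23 and 12.50 in the control. The knockout arrays lay within the control range, with a log2 fold change of 0.00 and a 95% interval from -0.32 to 0.32. The next, 1434931_at, read 11.73 and 11.63 against 11.75 to 11.82, so that both knockout arrays were lower, by 0.10 on average (limma adjusted p = 0.750). The dimmer probe sets 1444295_at, 1440789_at and 1447694_x_at gave log2 fold changes of 0.36, 0.52 and 0.02 with overlapping groups. Without knockout replicate 1 these were 0.016, 0.38 and -0.15. The interval of the brightest probe set excludes the value of 0.98 found at the brightest Dcc probe set, although the difference between the genes was not tested.

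Among the Unc5 receptors, which mediate repulsion from netrin-1, Unc5d had the largest log2 fold change of the 10 genes. The gene lies on chromosome 8 of GRCm38.p6 from 28646717 to 29219671. Its single probe set, 1440484_at, read 6.60, 5.60 and 6.41 in the controls, 9.12 in knockout replicate 1 and 7.61 in replicate 2. Both knockout arrays lay above every control, but they also differed from each other by 1.51, a gap that only 1.17% of all probe sets reached. This gave a log2 fold change of 2.16 ± 0.52 (SE), or 4.47-fold (limma adjusted p = 0.255, unadjusted p = 0.00697; 95% interval 0.87 to 3.45). Without knockout replicate 1 it was 1.40 and without replicate 2 it was 2.92, each adjusted p above 0.05.

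The array that was higher for Unc5d was the one with high GABAergic and prethalamic markers. Isl1, a transcription factor gene of the list, read 9.12 there and 4.59 in the other knockout array, and the controls stayed between 2.87 and 3.94. Of the 13 measured genes of that list, 6 lay above every control in both knockout arrays, against 15.8% of all genes, 0 passed the adjusted test, and 2 were below the median of all values in every array. The part of these cells in the Unc5d and Dcc values was not tested, nor was that of microglia, whose summed marker signal was 14.02 and 13.53 in the knockout and 11.48 to 11.96 in the control. In pooled tissue, more cells of a type and more RNA per cell cannot be told apart. The higher knockout array was replicate 1 for Unc5d and replicate 2 for Dcc, and the order of 2 pools does not bear on a cell source.

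Unc5c, on chromosome 3 from 141465564 to 141834924, read lower in the knockout at both of its probe sets. The brighter, 1449522_at, read 11.51 and 11.32 in the knockout and 11.77, 11.57 and 11.75 in the control, with a log2 fold change of -0.28 ± 0.13 (SE; limma adjusted p = 0.496). The other, 1419592_at, read 8.24 and 8.38 against 8.75, 8.83 and 8.62. There the groups were further apart than the lowest and highest control, and the log2 fold change was -0.42 ± 0.12 (SE; limma adjusted p = 0.322, unadjusted p = 0.0145). It stayed between -0.49 and -0.35 when any 1 array was left out.

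Unc5b, best known from vascular endothelial cells, had lower means in the knockout at both probe sets with overlapping groups. The brighter, 1435110_at, read 5.11 and 6.09 in the knockout and 6.01, 6.32 and 6.27 in the control, so that only knockout replicate 1 was below every control. The log2 fold change was -0.61 with a 95% interval from -1.36 to 0.15 (limma adjusted p = 0.532), and without that array it was -0.12. The dimmer, 1453269_at, gave -0.46 (adjusted p = 0.636). Endothelial and pericyte markers had a summed signal of 13.07 and 13.28 in the knockout and 12.88 to 13.24 in the control. Of 11 markers 4 read above every control in both knockout arrays and 0 below, against 15.8% and 13.9% of all genes, and these 4 also had an unadjusted p under 0.05, with 0 past the adjusted test. The part of these cells in the Unc5b values was not tested.

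For Unc5a the knockout arrays stood on opposite sides of the controls. Its probe set, 1434095_at, read 8.23, 7.70 and 8.09 in the controls, 8.95 in knockout replicate 1 and 7.31 in replicate 2. Only 0.877% of all probe sets had so large a gap between the knockout arrays. The log2 fold change of 0.12 (95% interval -1.09 to 1.34) therefore averages a higher and a lower pool, and it was -0.70 without replicate 1 and 0.94 without replicate 2. As with Unc5d, the higher array was the one with high GABAergic markers and the more skewed Gapdh signal. The part of either in the Unc5a values was not tested.

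**Figure D2:**
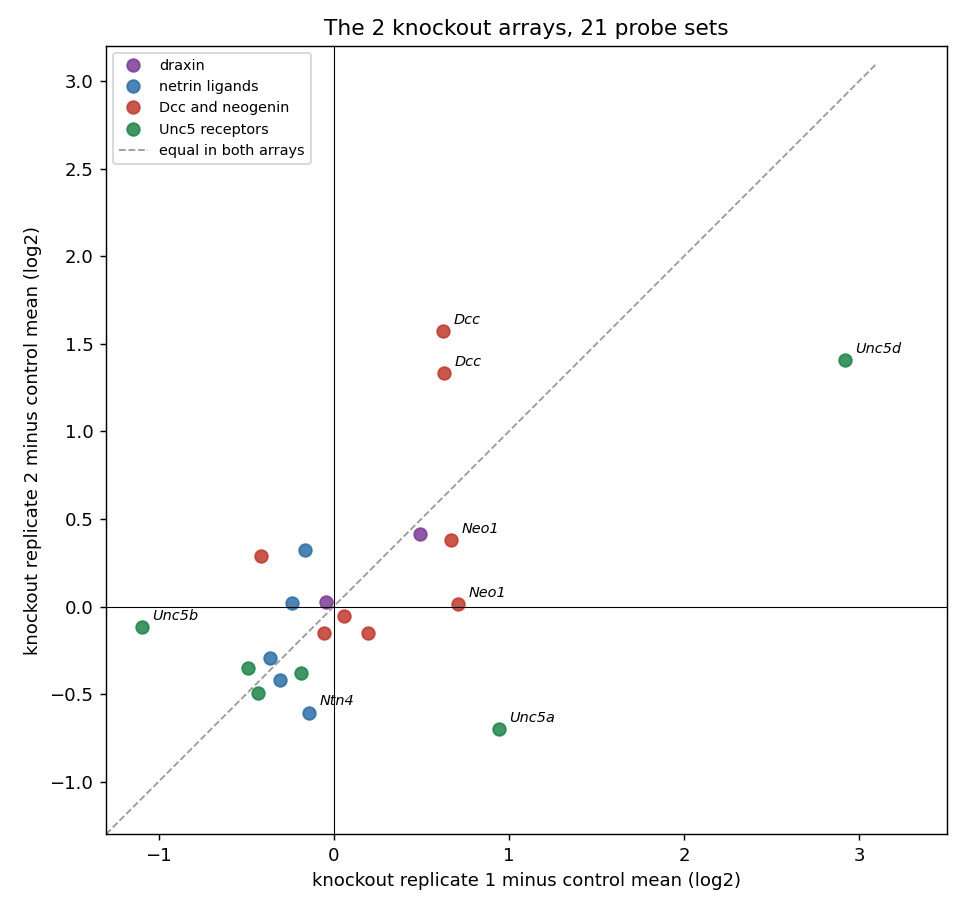
Each point is 1 of the 21 member probe sets, placed by its log2 value in knockout replicate 1 (x axis) and replicate 2 (y axis) after subtraction of the control mean, with colours for the roles of the genes and a dashed line where both arrays are equal. The 2 higher Dcc probe sets lie above the line, Unc5d lies below it at 2.92 and 1.40, and Unc5a lies at 0.94 and -0.70.

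The netrin ligands showed small differences. Ntn1, which encodes netrin-1, was below the median of all values in every array at both probe sets. The brighter, 1454974_at, read 5.46 and 5.95 in the knockout and 5.45, 5.67 and 5.75 in the control, a log2 fold change of 0.08 (95% interval -0.39 to 0.54). Without knockout replicate 1 it was 0.32 and without replicate 2 it was -0.17. The dimmer, 1422987_at, read 3.23 and 3.30 against 3.57, 3.63 and 3.57, which separated the groups by -0.33 on average (limma adjusted p = 0.357). RMA compresses differences at such low values, and the probe sets of the gene pointed in opposite directions.

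Ntn4, a netrin of basement membranes, had lower means in the knockout at both probe sets. Its brighter probe set, 1439794_at, read 7.89 and 7.43 in the knockout and 8.09, 7.82 and 8.20 in the control, with a log2 fold change of -0.38 (95% interval -0.86 to 0.11; limma adjusted p = 0.545). Knockout replicate 1 lay inside the control range. The dimmer, 1450512_at, gave -0.36 (adjusted p = 0.596), with both knockout arrays just below the lowest control. Meningeal and fibroblast markers had a summed signal of 9.87 and 9.80 in the knockout and 10.62, 10.08 and 11.97 in the control. Of 8 genes 2 read below every control, against 13.9% of all genes, 1 had an unadjusted p under 0.05 and 0 passed the adjusted test. Their part in the Ntn4 values was not tested.

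Ntn3, the remaining netrin gene, was dim, at 4.997 and 5.25 in the knockout and 5.14, 5.39 and 5.18 in the control. The groups overlapped, and the log2 fold change was -0.11 (95% interval -0.47 to 0.25; limma adjusted p = 0.812). Without knockout replicate 1 it was 0.017 and without replicate 2 it was -0.24.

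Draxin, the gene of the secreted inhibitor, lies on chromosome 4 from 148098437 to 148131139 and read higher in both knockout pools at its brighter probe set. 1456158_at read 10.47 and 10.39 in the knockout and 9.87, 10.23 and 9.83 in the control. The knockout arrays lay close together above every control, and the log2 fold change was 0.45 ± 0.16 (SE), a 1.37-fold difference (limma adjusted p = 0.391, unadjusted p = 0.0308). It ran from 0.38 to 0.58 when any 1 array was left out. The dimmer probe set, 1432152_at, read 5.69 and 5.75 against 6.06, 5.74 and 5.39, with a log2 fold change of -0.01.

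**Figure D3:**
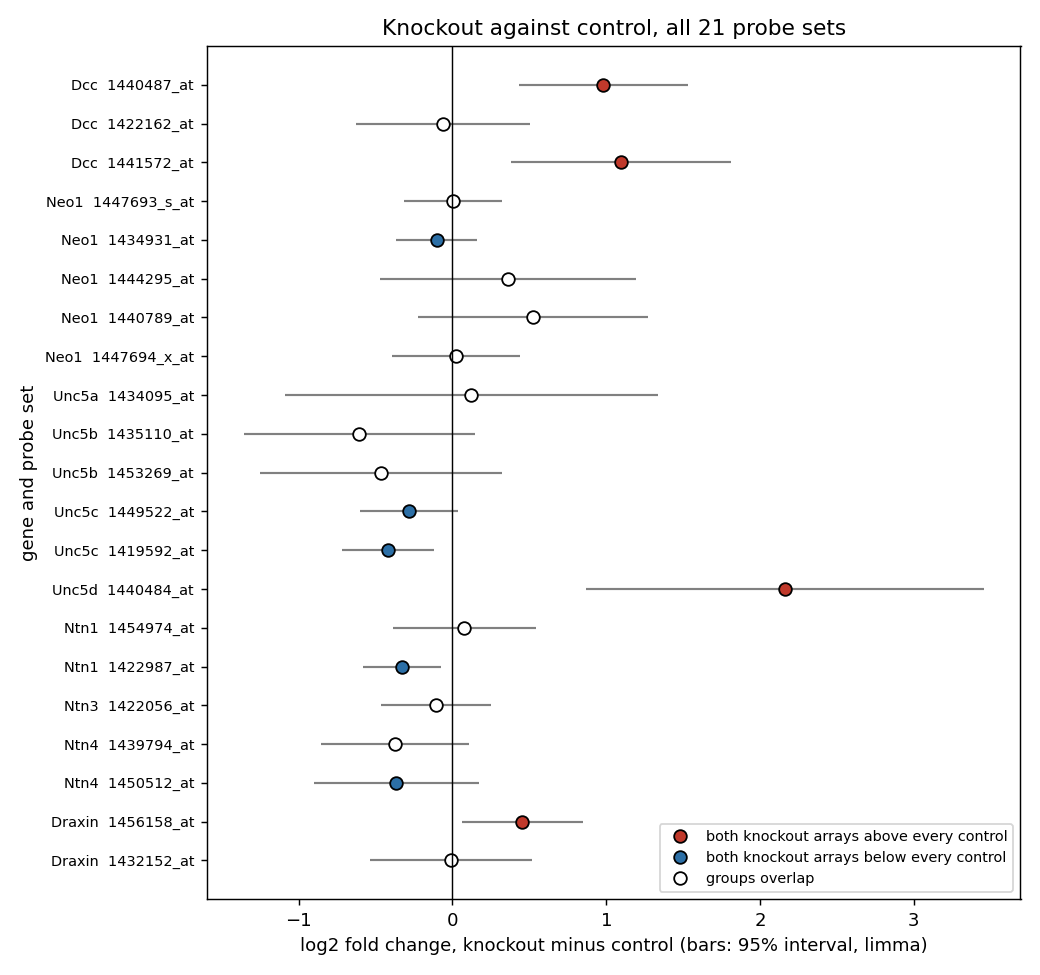
Log2 fold change of each member probe set, knockout minus control, with 95% intervals from limma; red points have both knockout arrays above every control, blue points both below, and open points overlap. Unc5d has the largest value, 2.16, with the widest interval, and the intervals of 6 probe sets leave out 0 before adjustment.

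Other genes of netrin signalling were counted once each, at their brightest probe set. Of 14 netrin relatives and alternative netrin receptors 13 had a probe set of their own. In limma 0 of these passed the adjusted test, against 0.104% of all genes, and 1 was higher and 1 lower at an unadjusted p under 0.05, against 6.9% and 4.9% of all genes. The list's median log2 fold change was -0.06, against 0.01 over all genes. Dscaml1, a homologue of the netrin receptor Dscam, read 8.27 and 7.35 in the knockout and 6.25 to 7.16 in the control (log2 fold change 1.20, or 0.74 without replicate 1; limma adjusted p = 0.360). Lrrc4c, the postsynaptic ligand of netrin-G1, read 11.56 and 11.10 against 11.84 to 11.90 (log2 fold change -0.55, adjusted p = 0.333). Itga6, a laminin-binding integrin subunit, had a log2 fold change of 0.44, or 0.18 without replicate 1, and Lrrc4, the ligand of netrin-G2, of -0.23, both with adjusted p-values above 0.5.

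Of 16 other partners of Dcc, neogenin and Unc5 receptors 15 were measured. In limma 0 of these passed the adjusted test, against 0.104% of all genes, while 5 were higher and 1 lower at an unadjusted p under 0.05, against 6.9% and 4.9% of all genes. This list was drawn up with its Flrt genes already known to be higher in these data, so its count carries no independent weight. Its median log2 fold change was -0.06.

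Flrt1, Flrt2 and Flrt3 encode adhesion proteins, of which Flrt2 and Flrt3 are ligands of Unc5 receptors. Flrt1 read 9.27 and 10.11 in the knockout and 7.998 to 8.24 in the control (log2 fold change 1.61, limma adjusted p = 0.138). Flrt3 read 7.73 and 8.06 against 6.89 to 7.14 (0.88, adjusted p = 0.156), and Flrt2 read 10.28 and 10.26 against 9.59 to 9.83 (0.59, adjusted p = 0.213). For each of them both knockout arrays lay above every control. In the whole list 6 of 15 genes did so and 2 lay below every control, against 15.8% and 13.9% of all genes.

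Cbln4, a cerebellin-family protein that binds Dcc, read 11.23 and 10.91 in the knockout and 10.09 to 10.50 in the control (log2 fold change 0.72, limma adjusted p = 0.268). The other genes of the list under an unadjusted p of 0.05 were chosen after their values were seen. Robo1, the Slit receptor, had a log2 fold change of 0.36, and Rgma, a repulsive ligand of neogenin, of -0.48 with 11.50 and 11.09 in the knockout against 11.69 to 11.83 in the control. Their adjusted p-values were 0.353 and 0.368.

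Of 34 intracellular effectors of netrin receptors 30 were measured. Among these 0 passed the adjusted test in limma, and 1 gene was higher and 1 lower at an unadjusted p under 0.05, against 6.9% and 4.9% of all genes. All 30 lay above the median of all values in every array, with a median log2 fold change of -0.04. Prkca, of the protein kinase C family that takes Unc5a off the cell surface, read 9.99 in both knockout arrays and 10.60 to 10.82 in the control (log2 fold change -0.73, limma adjusted p = 0.135). The 2 knockout values were identical, so the spread within groups at this probe set came from the controls alone. Elmo1, an activator of the small GTPase Rac1 together with Dock1, had a log2 fold change of 0.48, the endosomal adaptor gene Appl1 of 0.26 and the actin regulator gene Vasp of -0.19. The adjusted p-values of these 3 genes lay between 0.442 and 0.605.

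**Figure D4:**
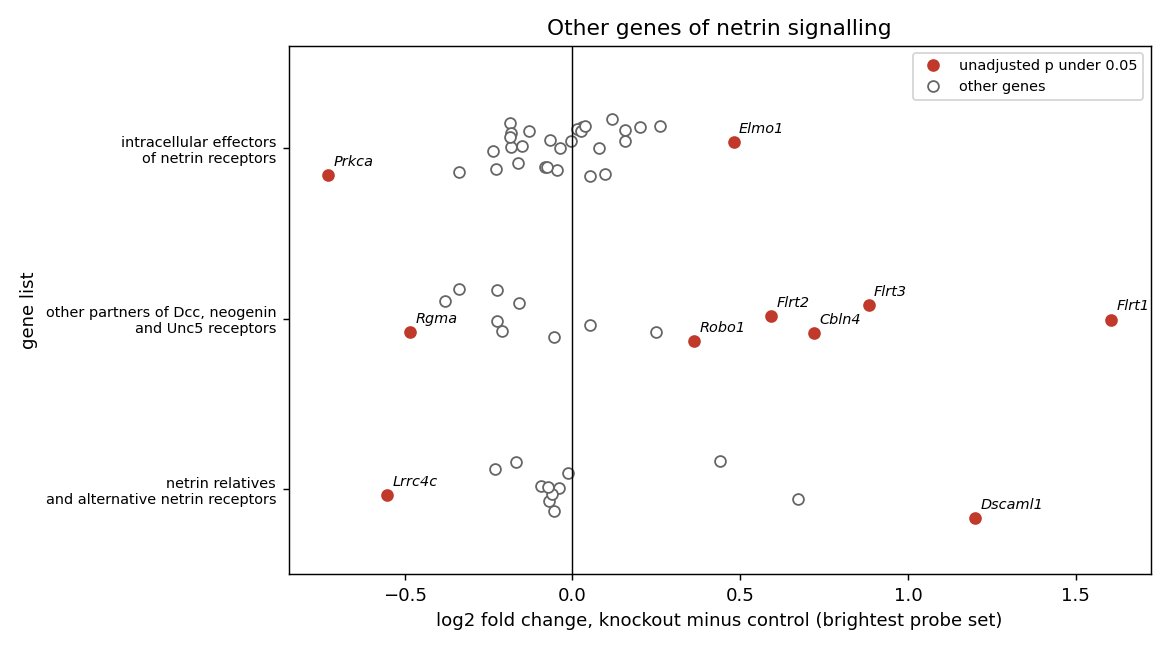
Log2 fold change, knockout minus control, at the brightest probe set for genes in 3 lists (rows; vertical scatter within a row has no meaning), with filled points for an unadjusted p under 0.05. The 5 filled points above 0 in the middle row are Flrt1, Flrt2, Flrt3, Cbln4 and Robo1, and 0 of the 58 points pass the adjusted threshold.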

How the data were processed

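The values analysed are log2 expression values deposited by the authors, who used RMA according to the submitters' processing notes; its version is not given in the sources used here. RMA equalises distributions between arrays, so a shift common to most genes is removed, and it compresses differences near the background. Per the labels' protocols, dLGN was dissected from 200 µm sections and 20 ng of RNA was amplified. Of 45101 probe sets, 64 array controls were left out; gene symbols came from the platform annotation, checked by gene ID against RefSeq of GRCm38.p6 (34741 found, 0 changed).

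Knockout and control were compared in limma 3.58.1 (R 4.3.3, lmFit and then eBayes) by a two-sided test with genotype as sole term. The p-values were adjusted by the Benjamini-Hochberg method over the 45037 probe sets tested. The fit was run on simulated data with equal spread in both groups, where the criterion was the bias of the fold changes. In the real data the median absolute difference was 0.21 between the knockout arrays and 0.15 to 0.17 between pairs of controls. Genes of lists are represented by their brightest probe set. Summed marker signals are log2 of summed linear values. Up to 4 genes per list were to be named, those with the smallest p above the median level. The members and lists were chosen with earlier results of these data known. The alternatives are given in the closing section; the number of arrays limits the precision.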

Additional observations from a re-analysis of the deposited data

How the results depend on the processing

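No member probe set passed an adjusted p of 0.05 in limma under any of the 15 alternatives, or 0.10 under the looser threshold, and 0 genes of the other netrin lists did. For the 21 member probe sets 98 of 294 values equalled the main one by construction of the alternative (only the test or the genes tested changed, or a gene had 1 probe set); of the other 196, 182 kept their direction. With 1 array left out in turn, where a lone knockout array is assumed to vary like the controls, the values that turned ranged from -0.42 to 0.29 for Dcc 1422162_at, -0.072 to 0.062 for Neo1 1447693_s_at, -0.15 to 0.19 for Neo1 1447694_x_at, -0.70 to 0.94 for Unc5a, -0.24 to 0.017 for Ntn3, -0.18 to 0.16 for Draxin 1432152_at and -0.17 to 0.32 for Ntn1 1454974_at. The mean of the Ntn1 probe sets was -0.13. The count over all probe sets was 33. It was 0 with any 1 array left out (0 to 0) and with a minimum fold of 1.5, 114 without dim probe sets, 100 with an intensity trend, 19 with array weights and 158 at an adjusted p of 0.10. Of the marker genes 2 passed, against 0 to 0 with an array left out, 0 with the minimum fold, 4 after a further quantile normalisation, 6 without dim probe sets, 5 with the trend, 8 at 0.10 and 8 with probe sets averaged. With the minimum fold, 1 member probe set kept an unadjusted p under 0.05. With the replicate number as a block 0 probe sets and 0 marker genes passed; nothing in the labels ties the numbers to a shared litter, and the 2 numbers gave correlations of deviations of 0.15 and 0.21. The cause of these shifts was not tested. Of the 21 member probe sets, 10 lay below the median in every array, where differences are compressed.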
